A study of Mus musculus with 2 samples.

Results

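In the left cerebral cortex of newborn mice, 246 of 10811 protein-coding genes with a CpG-rich promoter had no DNase I hypersensitive site at that promoter. A hypersensitive site is a stretch of chromatin that the enzyme DNase I cuts more often than its surroundings, and the deposited files list such sites as calls. The genes were taken from the 20807 protein-coding genes on the 19 autosomes of the GENCODE M21 basic annotation. A gene counted as CpG-rich when the ratio of observed to expected CpG dinucleotides within 500 bp either side of at least 1 of its transcription start sites (TSSs) was 0.6 or more. It counted as closed when no call lay within 1 kb of any of its TSSs in all 4 call lists, a stricter and a more lenient list from each of 2 libraries. It counted as open when all 4 lists held such a call, which was true of 9830 genes, and the remaining 735 genes had a call in 1 to 3 lists. The closed genes were thus chosen by the calls themselves, and their number is a description that carries no test.

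The study measured 1 group: left cerebral cortex tissue from female B6CASTF1/J mice, an F1 hybrid of a laboratory and a wild-derived strain, at postnatal day 4. The 2 libraries, replicate 1 and replicate 2, came from animals with different numbers in the labels, which give a single strain-level donor, and no animal was treated. Whole tissue was used, so an open promoter in few cells and a weakly open promoter in many cells cannot be told apart, and either can be listed as closed. With 1 group there was nothing to compare between conditions, and the comparisons are between closed and open genes and between gene families within the same libraries.

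CpG-rich promoters, often called CpG islands, are as a rule free of DNA methylation and depleted of nucleosomes, and most of them are accessible to DNase I in nearly every tissue whether or not their gene is strongly transcribed. Exceptions are known. CpG islands of developmental regulators that are silent in a tissue are commonly covered by Polycomb complexes, and those of some germline genes are DNA-methylated in somatic cells. Neither Polycomb marks nor DNA methylation were measured here.

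Promoters of 6 closed genes are printed below as examples of the kinds of closed genes described here: a posterior Hox gene, a forkhead gene, a regulator of hindbrain patterning, a Wnt ligand, a meiosis gene and, from a group where closed genes were rare, a ribosomal protein gene. Each runs from 250 bases before the TSS to 50 bases after it, 5′ to 3′ on the gene's strand, taken from the RefSeq assembly of GRCm38 (mm10). Capitals mark CpG dinucleotides. Hoxd13 is at chr2:74668060-74668359 on the plus strand, Foxf1 at chr8:121084136-121084435 (plus), Gbx2 at chr1:89931130-89931429 (minus), Wnt3 at chr11:103773900-103774199 (plus), Meioc at chr11:102665338-102665637 (plus) and Rpl10l at chr12:66284352-66284651 (minus).
Hoxd13: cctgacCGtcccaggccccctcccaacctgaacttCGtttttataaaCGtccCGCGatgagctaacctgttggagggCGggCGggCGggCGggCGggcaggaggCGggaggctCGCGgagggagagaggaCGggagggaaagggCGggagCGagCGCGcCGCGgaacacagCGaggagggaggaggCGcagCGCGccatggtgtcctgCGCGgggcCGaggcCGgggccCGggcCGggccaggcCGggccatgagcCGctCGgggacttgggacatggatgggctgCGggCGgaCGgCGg
Foxf1: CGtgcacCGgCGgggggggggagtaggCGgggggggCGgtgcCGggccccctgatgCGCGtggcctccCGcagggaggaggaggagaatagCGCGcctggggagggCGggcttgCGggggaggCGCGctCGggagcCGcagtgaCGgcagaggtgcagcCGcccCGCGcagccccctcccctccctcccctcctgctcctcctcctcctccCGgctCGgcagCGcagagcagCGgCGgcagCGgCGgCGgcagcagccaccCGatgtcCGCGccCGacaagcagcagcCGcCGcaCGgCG
Gbx2: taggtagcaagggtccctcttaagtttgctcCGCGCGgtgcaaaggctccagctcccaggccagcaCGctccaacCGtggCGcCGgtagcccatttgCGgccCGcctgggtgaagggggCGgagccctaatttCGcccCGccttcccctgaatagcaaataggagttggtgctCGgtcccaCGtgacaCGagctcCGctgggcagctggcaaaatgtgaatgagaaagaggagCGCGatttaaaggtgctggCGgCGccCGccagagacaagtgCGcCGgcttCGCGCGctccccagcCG
Wnt3: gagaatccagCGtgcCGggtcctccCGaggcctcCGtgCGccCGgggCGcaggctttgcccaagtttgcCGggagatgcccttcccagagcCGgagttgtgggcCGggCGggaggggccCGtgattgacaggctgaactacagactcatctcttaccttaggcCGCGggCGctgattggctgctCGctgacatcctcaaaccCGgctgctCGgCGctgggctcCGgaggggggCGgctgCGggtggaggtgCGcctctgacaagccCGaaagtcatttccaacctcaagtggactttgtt
Meioc: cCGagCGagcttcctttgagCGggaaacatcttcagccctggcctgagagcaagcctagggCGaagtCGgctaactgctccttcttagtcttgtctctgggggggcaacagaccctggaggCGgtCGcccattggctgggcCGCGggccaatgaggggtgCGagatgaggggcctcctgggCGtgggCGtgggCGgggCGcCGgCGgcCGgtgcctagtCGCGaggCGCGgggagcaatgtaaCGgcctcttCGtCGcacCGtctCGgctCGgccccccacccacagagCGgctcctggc
Rpl10l: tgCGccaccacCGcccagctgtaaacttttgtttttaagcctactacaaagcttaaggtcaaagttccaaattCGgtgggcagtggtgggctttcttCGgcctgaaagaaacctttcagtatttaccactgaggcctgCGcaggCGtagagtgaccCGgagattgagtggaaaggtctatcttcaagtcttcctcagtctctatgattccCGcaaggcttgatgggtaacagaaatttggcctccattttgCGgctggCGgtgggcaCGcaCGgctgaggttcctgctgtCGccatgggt
These 300 bases held 37 CpGs in Hoxd13 and in Foxf1, 28 in Meioc, 27 in Gbx2, 24 in Wnt3 and 13 in Rpl10l. The GC content was highest in Foxf1, at 79.0%, and lowest in Rpl10l, at 52.0%. Over all closed genes the same window held a median of 21 CpGs, with quartiles of 13 and 27, against 25 in open genes, with quartiles of 19 and 33.

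The stricter lists held 59355 calls in replicate 1 and 46566 in replicate 2, and the lenient lists 92872 and 81087. The authors' signal value of a call had a median of 0.556 in replicate 1 and 1.45 in replicate 2 in the stricter lists. The files give neither read counts nor how these values were scaled, so the depth behind a missing call is unknown and the libraries' values are not compared with each other. Of 15 genes chosen to check the tissue label, 10 had a promoter call in all 4 lists and 0 had none. Map2, a microtubule protein of dendrites, had a signal value of 1.49 in replicate 1 and of 4.14 in replicate 2, and Tubb3, a neuronal tubulin, had 1.33 and 7.31. None of the 8 check genes with a CpG-rich promoter was closed. Emx1 and Emx2, regulators of the dorsal forebrain, had calls in only some of the lists.

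Closed promoters were 2.28% of CpG-rich genes (95% interval 2.00 to 2.57), against 65.4% of the 9996 other autosomal genes. Every interval is an exact binomial (Clopper-Pearson) 95% interval that covers counting error only. Between the closed and the open genes lay 153 genes with a call in 1 list, 205 with a call in 2 and 377 with a call in 3. Of the genes with a call in some lists, 65 had one in replicate 1 alone, 151 in replicate 2 alone and 519 in both. Their strongest promoter call had a median signal value of 0.598 in replicate 1 and 0.906 in replicate 2, against 1.72 and 5.02 in open genes. The rule favours this order, since an open gene needed a call in the stricter lists too. Open genes also had more TSSs over which the strongest call was taken (median 2 against 1). The lower values are therefore a description. The lenient list of replicate 2 alone took out 98 genes and that of replicate 1 alone took out 54.

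The distance from a closed gene's TSSs to the nearest call in any list had a median of 8327 bp. The closed genes nearest to the limit of 1 kb were Ap1m2, an adaptor subunit of epithelial cells, at 1044 bp, Lhx6 at 1166 bp, Plxdc1 at 1177 bp and Hoxd11 at 1178 bp. Lhx6 encodes a LIM homeodomain factor of cortical interneurons born in the medial ganglionic eminence. Its nearest call in replicate 2 was 12366 bp away, and that of Hoxd11 was 19978 bp away, so these genes were near the limit in replicate 1 alone. Just outside the limit were Barhl1, at 993 bp with a signal value of 0.835 in replicate 2 only, Foxb1, at 980 bp with 0.490 in replicate 1 only, and Gata3, at 945 bp with 0.985 in replicate 1 and 1.29 in replicate 2. The weakest call that took a gene out had a signal value of 0.0788, at Gm10409 in replicate 2. At the CpG limit, Ly6g6c was kept with a ratio of 0.6002 and P2rx5 was left out with 0.598.

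The authors' deposited false discovery rates (q-values) per base, which are listed under 0.05 only, show which closed promoters held some cutting below the level of a call. Choosing promoters without a call keeps such bases few, so their number is a description. A listed base lay within 1 kb of the CpG-richest TSS at 21 closed genes (8.54%, 5.36 to 12.8), at 7 genes in replicate 1 (2.85%) and at 17 in replicate 2 (6.91%). The share was 99.9% of open genes and 99.5% of genes with a call in some lists. In windows of the same size 10 kb upstream of closed genes, it was 12.2% in replicate 1 and 13.8% in replicate 2, above their promoters. Those windows were not chosen for lacking a call. Listed bases were present in both libraries at 3 genes. Aldh1a3, which makes retinoic acid, had 26 listed bases in replicate 1 and 39 in replicate 2, Htra3, a secreted protease, had 39 and 26, and Ap1m2 had 7 and 5. The other genes had listed bases in 1 library: Fev, a regulator of serotonin neurons, had 29 in replicate 2, Tlx1 had 29 and Foxn4 had 27, also in replicate 2. Hoxd13 was the 1 closed gene with a base under 0.01, with 23 listed bases and a lowest rate of 0.000115 in replicate 1 and no listed base in replicate 2. Footprints, the short protected intervals that the authors called within cut regions, were listed at 0 of 246 closed promoters in each library, a count that the choice of promoters without a call largely fixes.

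Part of the closed set lay in sequence that occurs more than once in the genome. The measure was the share of 36-base stretches in the 1 kb around the CpG-richest TSS that occur once in the genome. Under 90% of these stretches were unique at 79 of 246 closed genes (32.1%, 26.3 to 38.3), against 476 of 9830 open genes (4.84%). None was unique at 37 closed genes (15.04%), against 2 open genes. Genes under 90% were closed in 13.2% of cases, against 1.64% of the others, where 167 genes were closed. Neither the read length nor the treatment of reads with several matches is stated, and the part of repeated sequence in these missing calls was not tested. Many of the values below are therefore also given for the 167 closed genes with 90% or more unique stretches, called unique genes here.

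**Figure D1:**
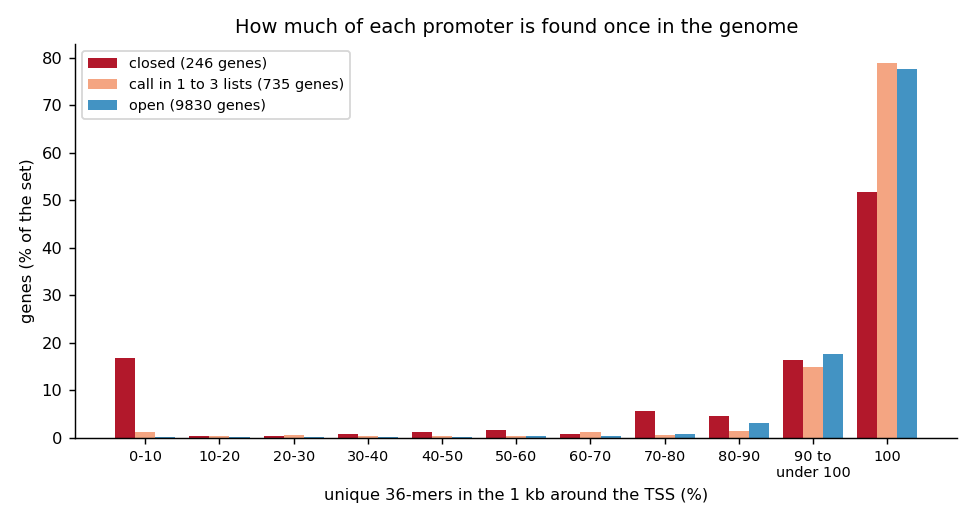
Share of genes (y axis, % of each set) by the percent of 36-base stretches within 1 kb around the TSS that occur once in the genome (x axis), for closed genes, genes with a call in 1 to 3 lists and open genes. Closed genes fall at both ends, with 16.7% under 10% unique and 51.6% fully unique, while 77.5% of open genes are fully unique.

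Genes with a provisional Gm or Rik name supplied 35 of the 79 repeated closed genes. Of 388 such CpG-rich genes, 40 were closed (10.3%), and 35 of the 40 closed genes were repeated, against 43 of 317 open ones. Of 64 replication-dependent histone genes, which supply histones during DNA replication and sit in families of near-identical copies, 7 were closed. Of these 6 were repeated, as were 42 of the 48 open histone genes, so repeated sequence marked the family as a whole. Hist2h3c1, an H3 gene with a CpG-rich stretch of 2300 bp, had 3.7% unique stretches, and Hist1h2ap had none. Whole blocks were repeated too. The 6 neighbouring closed genes from Plac9a to Tmem254b on chromosome 14 and the 5 from Slc25a37 to Loxl2 on the same chromosome held 0 unique genes. The 5 closed genes farthest from any call, Gm3488 (338821 bp), Gm3500, Gm16867, Gm20878 and Gm21586, all had none unique. Of the 24 closed genes with no call within 50 kb, 21 were repeated, and the unique ones were Irx4, Ankrd31 and Adad1.

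Hox genes held 17 of the 167 unique closed genes, more than any other single family list. They encode homeodomain factors that set position along the head-to-tail axis and act in the hindbrain, the spinal cord and the trunk. Of 27 CpG-rich Hox genes, 18 were closed (66.7%, 46.0 to 83.5), against 2.28% of all CpG-rich genes, and 0 were open. The other 9 had calls in 1 library each. Among them, Hoxa2, Hoxa4, Hoxa5 and Hoxd1 had signal values of 0.472 to 0.598 in replicate 1 and no call in replicate 2. Hoxa3, Hoxa7, Hoxa10 and Hoxb5 had values of 0.488 to 1.87 in replicate 2 and no call in replicate 1. No Hox promoter that was CpG-rich therefore had a call in both libraries. Closed genes were 4 of 11 in the Hoxa cluster, 4 of 5 in Hoxb, 4 of 4 in Hoxc and 6 of 7 in Hoxd. By position, 17 of 19 genes of paralog groups 6 to 13, which lie toward the 5′ end of each cluster and act toward the tail, were closed, against 1 of 8 of groups 1 to 5, which was Hoxd3. Hoxd3 was also the 1 repeated gene among them, with 88.9% unique stretches. The remaining 12 Hox genes did not reach the CpG limit, and calls in some lists were present at 3 of these, Hoxc5, Hoxc10 and Hoxd12.

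**Figure D2:**
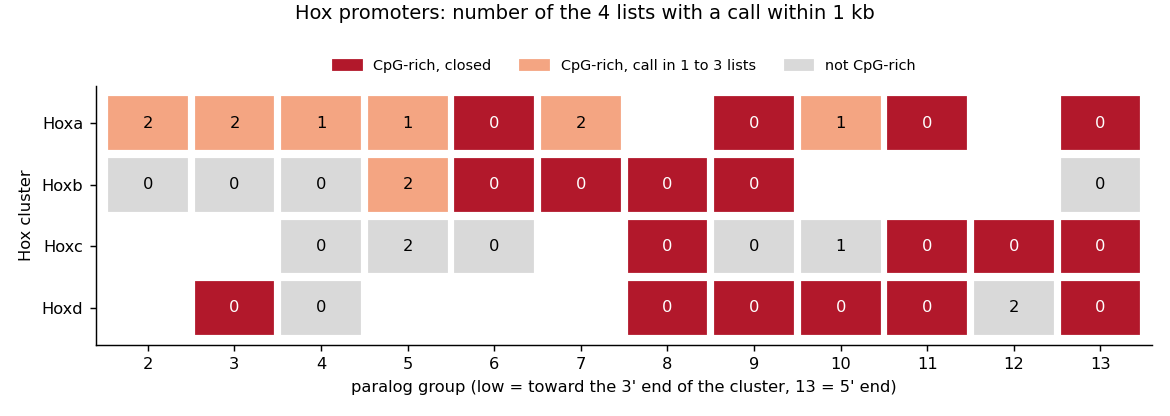
Map of the Hox clusters, with cluster on the y axis and paralog group on the x axis. Paralog groups 2 to 13 are drawn. Each box is a gene, and its number is how many of the 4 lists hold a call within 1 kb. Closed genes fill most boxes of groups 6 to 13, and no CpG-rich Hox gene has more than 2 lists.

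Genes related to Hox were alike in their counts. Of 9 CpG-rich Hox-linked and ParaHox genes, 6 were closed and 0 open. Gbx1 and Gbx2 encode homeodomain factors of the neural tube, and Gbx2 sets the border between midbrain and hindbrain. The other closed genes were Gsx2, which patterns the ventral forebrain before birth, Evx1, a factor of spinal interneurons that adjoins the Hoxa cluster, and Cdx1 and Cdx2, which act upstream of Hox genes in the trunk and the gut. Hoxa11, Hoxa13 and Evx1 formed a run of 3 closed genes over 67742 bp. A run is a series of closed genes with no other CpG-rich gene between them. The 6 closed Hoxd genes formed a run of 43617 bp (chr2:74668310-74711927), Hoxb6 to Hoxb9 one of 27648 bp and the 4 closed Hoxc genes one of 69504 bp. In all, 26 runs of 2 or more genes held 86 of the closed genes.

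Over 17 lists of developmental transcription factors, 53 of 317 CpG-rich genes were closed (16.7%, 12.8 to 21.3), 113 had a call in some lists and 151 were open. All but 2 of the closed genes were unique. Genes with a call in some lists had medians of 0.588 in replicate 1 and 0.827 in replicate 2, against 1.29 and 2.99 in open genes of these lists. Families differed widely. Closed genes were 4 of 16 paired-like homeobox genes (Uncx, Pitx1, Phox2a and Prrx2), 3 of 12 Iroquois and sine oculis homeobox genes (Six2, Irx1 and Irx4), 2 of 7 Pax genes (Pax1 and Pax3), 2 of 10 LIM homeobox genes (Lmx1b and Lhx6) and 2 of 10 T-box genes (T and Tbx1). Some of these act outside the cortex: Pitx1 in the hindlimb and pituitary, Six2 in nephron progenitors and Pax1 in the sclerotome. T acts in the notochord and early mesoderm and Tbx1 in the pharyngeal apparatus. Lhx6, by contrast, is a factor of cortical interneurons. Sites of action were not counted over the families. Of 33 forkhead genes, 5 were closed. They were Foxf1 of lung and gut mesenchyme, Foxa2 of endoderm and floor plate, Foxe3 of the lens, Foxn4 of retina and spinal cord, and Foxr1. Foxo6, an open forkhead gene, had a signal value of 3.32 in replicate 1 and of 10.4 in replicate 2.

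Other families held few closed genes or none. NK homeobox genes gave 3 closed of 37 (Tlx1, En1 and Dbx1), but 28 of the others had a call in only some lists and 6 were open. Basic helix-loop-helix genes gave 2 closed of 32 (Hand2, of heart and sympathetic neurons, and Ptf1a, of pancreas and cerebellum). Krueppel-like and related zinc finger genes gave 4 of 41 (Ovol1, Wt1, Sall4 and Prdm13), Gata genes 1 of 5 (Gata2) and Zic, Gli and Glis genes 1 of 7 (Zic1, with 85.6% unique stretches). None was closed among 14 Sox genes, 8 POU genes, 17 Runx, Ets and Cebp genes and 32 nuclear receptor genes, of which 28 were open. With so few genes per family, a count of 0 allowed shares of up to 23.2% for Sox genes and 10.9% for nuclear receptor genes.

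**Figure D3:**
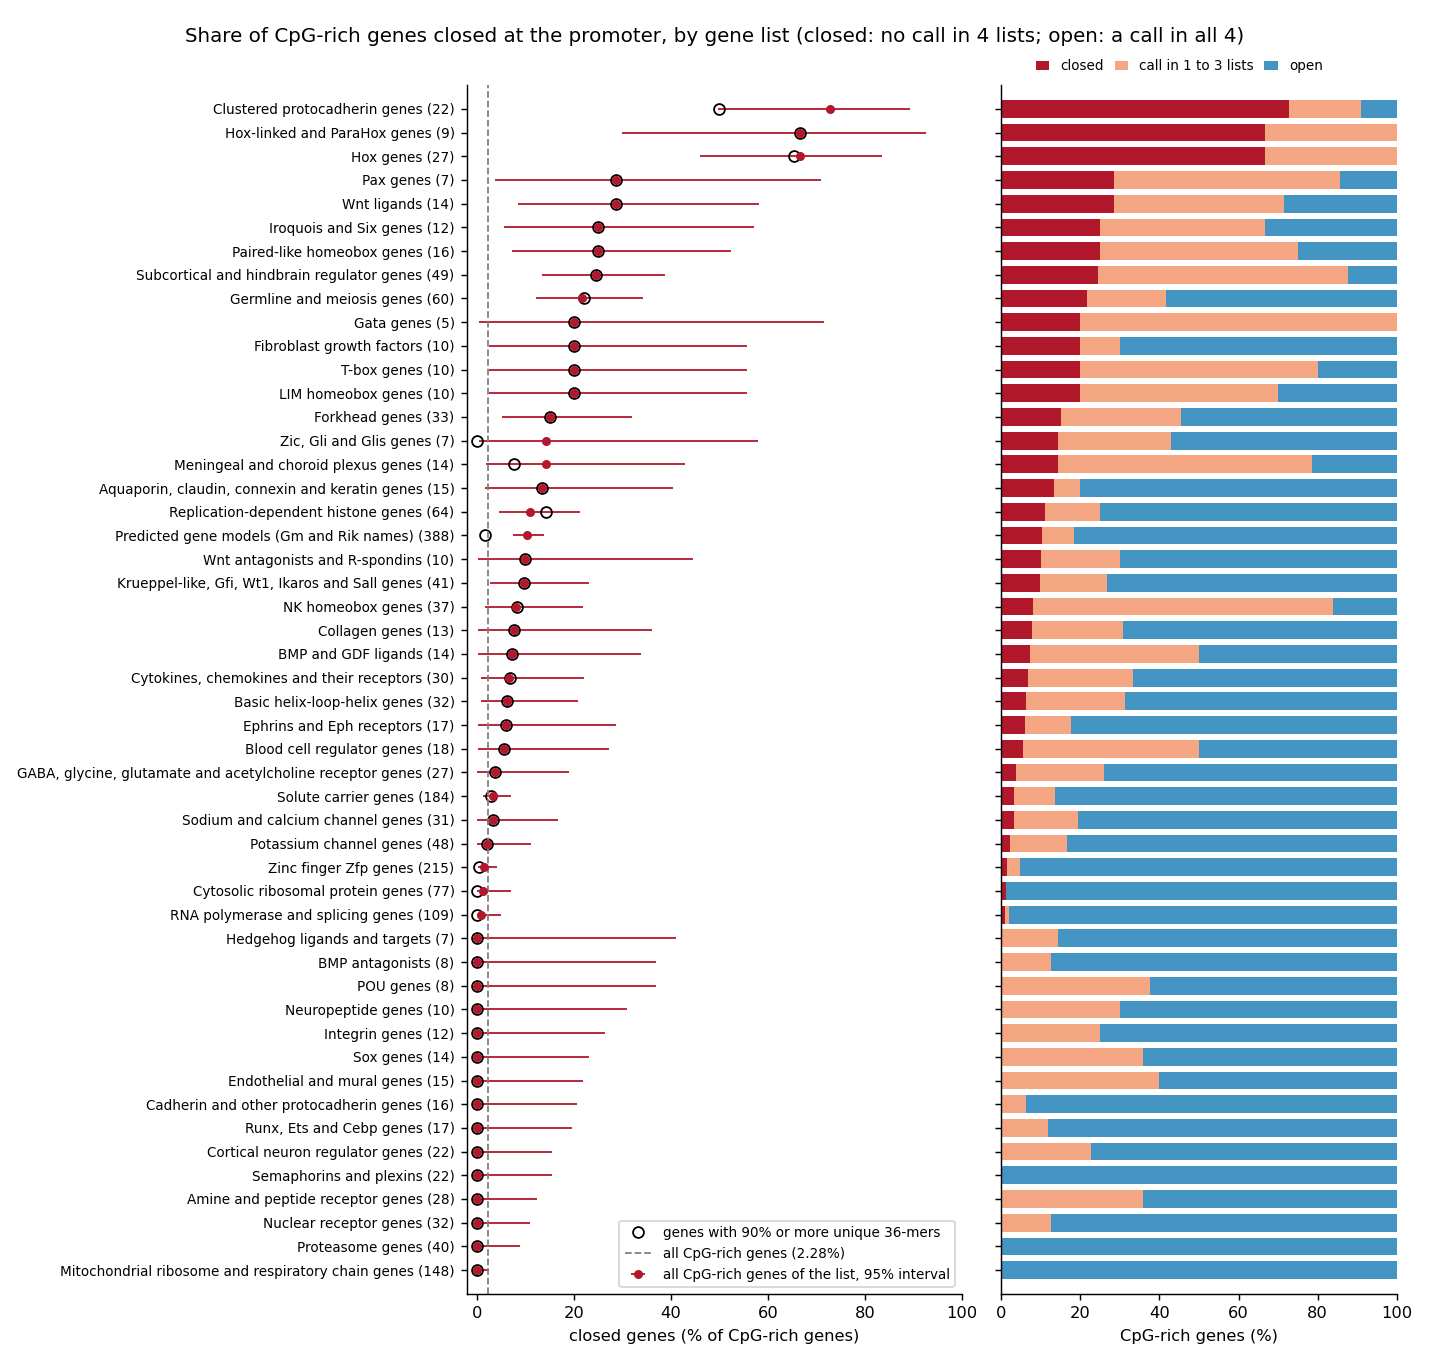
Left, share of CpG-rich genes that were closed (x axis, %) in each gene list (y axis, number of CpG-rich genes in brackets), with the exact 95% interval, for all genes and for unique genes, and the 2.28% of all CpG-rich genes as a dashed line. Right, shares of closed genes, genes with a call in 1 to 3 lists and open genes. With repeated genes included, clustered protocadherin, Hox and ParaHox genes stand highest. No proteasome or mitochondrial gene was closed, counts that allow up to 8.81% and 2.46%.

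Regulators of brain neurons were counted in a pair of lists, by region. Of 49 CpG-rich regulators of subcortical, midbrain, hindbrain and spinal neurons, 12 were closed (24.5%, 13.3 to 38.9), 31 had a call in some lists and 6 were open. The closed ones were Ptf1a, Foxa2, Gata2, Gbx2, Gsx2, Evx1, Irx1, Irx4, Lmx1b, En1, Dbx1 and Phox2a. Of 22 CpG-rich regulators of cortical neurons, 0 were closed, which allows up to 15.4%, 5 had a call in some lists and 17 were open. That list leaves out interneuron factors: Lhx6, the closed factor of cortical interneurons, was counted with the LIM homeobox genes alone. Tle4, a corepressor of deep-layer neurons, had a signal value of 3.06 in replicate 1 and of 19.5 in replicate 2, and Sox11 had 1.97 and 7.996. The lists of other cell types in the tissue gave 0 closed of 15 endothelial and mural genes, 0 of 4 microglial genes, 1 of 18 blood cell regulators (Gata2) and 2 of 14 meningeal and choroid plexus genes (Lmx1b and Zic1). The counts of 0 allow up to 21.8% for endothelial and mural genes and 60.2% for microglial genes.

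Signalling genes were closed at 11 of 132 (8.33%, 4.23 to 14.4), all 11 unique. Ligands supplied most of them. Of 14 CpG-rich Wnt ligand genes, 4 were closed: Wnt3 and Wnt3a, which act in gastrulation and axis growth, Wnt9b, which acts in kidney development, and Wnt10b. Wnt9b and Wnt3 are neighbours and formed a run of 24329 bp (chr11:103749821-103774150). Wnt7a and Wnt7b, which the developing brain uses to guide its vessels, were open. Wnt7a had a signal value of 1.27 in replicate 1 and of 2.81 in replicate 2, and Wnt7b had 1.53 and 3.85. The closed fibroblast growth factors were Fgf4, of the early embryo, and Fgf8, of embryonic organisers, and the other closed genes were Rspo1, Bmp8b, the ephrin gene Efna2, the death receptor gene Tnfrsf10b and the chemokine gene Cxcl16. None of 22 semaphorin and plexin genes, which guide axons, was closed, and all 22 were open. None was closed among 8 BMP antagonists and 7 Hedgehog pathway genes. These counts of 0 allow up to 15.4% for semaphorin and plexin genes, 36.9% for BMP antagonists and 41.0% for Hedgehog pathway genes. They do not set these lists apart from the 2.28% of all CpG-rich genes.

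Germline genes were closed more often than CpG-rich genes as a whole. Of 60 CpG-rich genes of germ cells and meiosis, 13 were closed (21.7%, 12.1 to 34.2), all of them unique, 12 had a call in some lists and 35 were open. Sycp1, Sycp2, Sycp3 and Tex12 encode parts of the synaptonemal complex, which joins homologous chromosomes in meiosis. Spo11 makes the DNA breaks that start recombination, Ankrd31 and Hormad2 act in recombination and its surveillance, and Meioc keeps germ cells in meiotic prophase. Mov10l1 and Fkbp6 act in the piRNA pathway, and D1Pas1, Adad1 and Slc25a31 are expressed in testis. These promoters were less CpG-rich than those of open germline genes: the median ratio was 0.683 in closed germline genes and 0.823 in open ones, and the median CpG-rich stretch 600 and 950 bp. Germline genes with a call in some lists were near the closed ones, at 0.684 and 625 bp. Genes with a germline function could be open as well, as Prdm9, the meiotic histone methyltransferase gene, had a signal value of 3.72 in replicate 1 and of 13.3 in replicate 2 at its promoter.

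Clustered protocadherin genes, which encode adhesion proteins of neurons, were mostly closed, and most of the closed ones were repeated. Each neuron is known to use a few promoters of the variable exons by chance, whereas the C-type isoforms at the end of each cluster are used more evenly. Of 22 CpG-rich clustered protocadherin genes, 16 were closed (72.7%, 49.8 to 89.3), 10 of 12 in the alpha cluster and 6 of 10 in the gamma cluster. The closed alpha genes include 2 gene entries with the symbol Pcdha11. The 2 open genes were the C-type Pcdhac2, with a signal value of 1.28 in replicate 1 and of 2.42 in replicate 2, and Pcdhgc3, with 1.54 and 4.77. Of the closed genes 12 were repeated. Among the 8 unique genes 4 were closed, a lower share than the 65.4% of unique Hox genes. With a CpG ratio of 0.75 or more required, 1 of 3 genes was closed, and with a GC content of 55% required as well as the ratio of 0.6, 0 of 2. They differed in sequence from the other closed genes: the median GC content was 46.1%, against 59.9% over all closed genes, and their median CpG-rich stretch, a measure defined below that also requires a GC content of 50%, was 0 bp. Of 16 other cadherin and protocadherin genes, 0 were closed, which allows up to 20.6%, and 15 were open.

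Housekeeping genes were closed at 2 of 374 (0.535%, 0.0648 to 1.92), under the 2.28% of all CpG-rich genes. Both are single-exon copies: Rpl10l, a testis-expressed retrogene of the large ribosomal subunit, with 79.8% unique stretches, and Eif3j2, of a translation initiation factor, with 67.1%. No housekeeping gene was closed among the 335 unique ones. Channel and receptor genes were near the 2.28% of all CpG-rich genes, with closed shares of 2.08% for 48 potassium channel genes (Kcnq1, of heart and inner ear), 3.23% for 31 sodium and calcium channel genes (Trpv4) and 3.70% for 27 transmitter receptor genes (Grin3b). Of 28 amine and peptide receptor genes, 0 were closed, which allows up to 12.3%. Solute carrier genes were closed at 6 of 184 (3.26%), also near that share.

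Of the closed genes, 89 were in no list, 70 of them unique. Picked after their values were seen, Spint1, St14, Esrp2, Ap1m2, Ppl, Kdf1 and Bspry are genes of epithelial cells. St14 encodes the protease matriptase, Spint1 its inhibitor, Esrp2 an epithelial splicing regulator and Ppl periplakin. No list of epithelial genes was made, so no closed share can be given for them. Of 15 CpG-rich aquaporin, claudin, connexin and keratin genes, which were in a list, 2 were closed and 12 were open. The longest CpG-rich stretch of all closed genes was that of Sim2, a bHLH-PAS factor, at 3050 bp. Des, the muscle intermediate filament gene, Pth1r, the parathyroid hormone receptor gene of bone and kidney, Ntf3, a neurotrophin gene, and Tet1, which oxidises methylated cytosine, were also closed. Ntf3 lay 1418 bp from a call and Tet1 7413 bp.

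Closed promoters, like those with a call in some lists, were less CpG-rich than open ones within the range the rule allowed. The CpG ratio had a median of 0.711 (quartiles 0.648 and 0.786) in closed genes and 0.800 (0.716 and 0.887) in open genes. Among unique genes the medians were 0.721 and 0.799. Unique genes with a call in some lists had a median of 0.728, so the lower ratio was not particular to closed genes. The share of closed genes was 5.96% at ratios of 0.6 to 0.65, 2.94% at 0.7 to 0.75, 1.22% at 0.8 to 0.85 and 0.552% at 1.0 or more. Among unique genes it was 4.10%, 2.32%, 0.9504% and 0.391% in the same bins. Single closed genes stood high even so. Tbx1 had a ratio of 1.03, Hoxd8 1.00 and Ovol1 0.986. The CpG-rich stretch around the TSS was the span over which windows of 500 bp, moved in steps of 50 bp, kept a ratio of 0.6 and a GC content of 50%. Its median was 650 bp in closed genes (quartiles 450 and 950) and 900 bp in open genes (650 and 1150), or 750 and 900 bp among unique genes. Unique genes with a call in some lists had a median of 775 bp. Among developmental transcription factor genes the difference in length was smaller, with a median stretch of 1150 bp in closed genes, 1150 bp in genes with a call in some lists and 1200 bp in open genes. Their median CpG ratio was 0.770 in closed genes, 0.759 in genes with a call in some lists and 0.820 in open ones. Besides Sim2, the longest stretches of closed genes were those of Foxf1, at 2750 bp, Hist2h3c1, at 2300 bp, Lmx1b, at 2200 bp, and Gbx2 and Zic1, at 2000 bp each. Closed genes more often had 1 TSS (58.1% against 42.5% of open genes; 56.3% against 41.97% among unique genes) and a single exon (11.8% against 2.91%; 4.79% against 2.44% among unique genes). Unique genes with a call in some lists were at 50.3% for 1 TSS and 4.49% for a single exon.

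**Figure D4:**
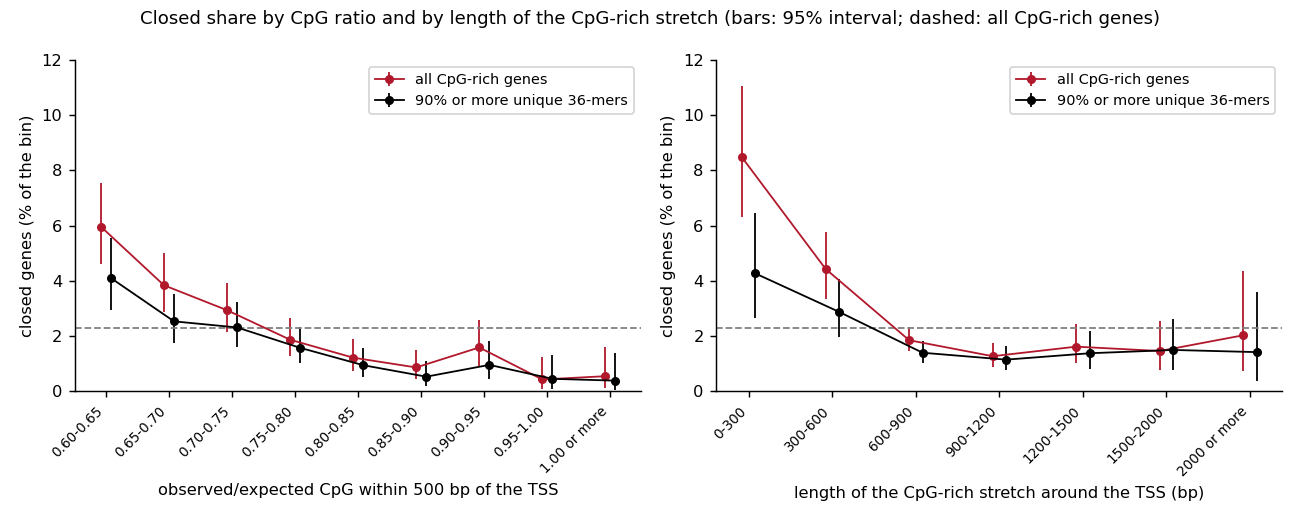
Share of CpG-rich genes that were closed (y axis, % of the bin, with exact 95% intervals) by CpG ratio within 500 bp of the TSS (left x axis) and by length of the CpG-rich stretch in bp (right x axis), for all and for unique genes. The share is 5.96% in the lowest bin of CpG ratio and 0.552% in the highest, and past 600 bp of stretch it stays between 1.28% and 2.03%.

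Among the consensus sequences of promoter factors that were searched, those of NRF1, ETS factors and YY1 were rarer in closed promoters. That of SP1 was rarer with repeated genes included, and among unique genes in a wider window only. All were searched on both strands from 250 bases before to 50 bases after the TSS. A match is a description of the letters, not a bound site. The NRF1 consensus, GCGC and TGCGC with any base between them, was present in 3.25% of closed promoters (1.41 to 6.31), 13.02% of open ones and 12.1% of all CpG-rich promoters. CCGGAAGT, of ETS factors, was present in 1.63% of closed (0.445 to 4.11), 9.28% of open and 8.60% of all promoters, and the YY1 consensus, AA and ATGGCGG with any base between them, in 1.22%, 4.07% and 3.76%. Among unique closed promoters the shares were 2.99% for NRF1, 1.20% for ETS and 0.599% for YY1. Genes with a call in some lists were low too, at 2.18% for NRF1 and 1.90% for ETS. When open promoters were weighted to the CpG ratios of closed ones, their shares were 11.04% for NRF1, 9.76% for ETS and 3.58% for YY1, so the closed promoters were also lower at like CpG ratios. GGGCGG, of SP1, was present in 56.9% of closed (50.5 to 63.2), 73.5% of open and 73.1% of all promoters. In open promoters weighted to the CpG ratios of closed ones its share was 69.5%. Among unique closed promoters it was present in 66.5% (58.8 to 73.6), an interval that holds the open share. Within 500 bp either side it was present in 87.4% of unique closed promoters (81.4 to 92.0), an interval under the 93.0% of open ones. Genes with a call in some lists were at 91.8% there.

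Other consensus sequences did not show such a difference throughout. CCAAT was present in 33.7% of closed promoters (27.9 to 40.02) and 36.2% of open ones, and within 500 bp either side in 63.01% of both sets. GCGCGC, of ZF5, was present in 24.8% of closed and 35.2% of open promoters, but in 27.04% of open promoters weighted to the CpG ratios of closed ones. Within 500 bp it was present in 54.9% of closed promoters and in 50.7% of open ones weighted in this way, so the order of the sets turned. TGACGTCA, the cyclic AMP response element, was present in 2.03% of closed promoters (0.663 to 4.68) and 4.11% of open ones, and TTCCCGCC, of E2F factors, in 3.66% (1.69 to 6.83) and 5.07%. The CTCF letters, CCA, AGG and GGC with 2 bases of any kind between the first pair and 1 between the second, were present in 0.813% of closed (0.0986 to 2.91) and 1.43% of open promoters. The TATA box letters TATAAA were present in 10.6% of closed, 5.28% of open and 5.59% of all promoters, but in 7.78% of unique closed promoters (4.21 to 12.9), an interval that holds the open share. Within 500 bp either side the TATA letters were present in 18.3% of closed and 17.3% of open promoters, and in 13.2% of unique closed promoters, so the order turned there as well. In the printed sequences, the TATA letters are present in Hoxd13, and GGGCGG or its reverse complement in all 6.

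The E-box letters CACGTG, which some basic helix-loop-helix factors recognise, were about as common in closed promoters (12.2%; 14.4% of unique ones) as in open (10.98%) and in all (10.96%) promoters, but not evenly spread. They were present in 13 of 53 closed developmental transcription factor promoters (24.5%), against 14 of 151 open ones (9.27%). The 53 include 18 closed Hox promoters, which held 7 of the 13, and no Hox gene was open. Among germline genes they were present in 6 of 13 closed promoters (46.2%) and in 7 of 35 open ones. The TATA letters were also more common in closed promoters of both groups. They were present in 8 of 53 closed and 12 of 151 open developmental transcription factor promoters, and in 2 of 13 and 1 of 35 germline ones. The longer TCACGTGA, every match of which also holds CACGTG, was present in 1 closed promoter, against 2.09% of open and 1.92% of all promoters. The NRF1 letters were present in 0 of 53 closed developmental transcription factor promoters, against 8 of 151 open ones, and in 4 of 13 closed germline promoters, against 9 of 35 open ones. The ETS letters were present in 2 of 13 closed and 5 of 35 open germline promoters, and the YY1 letters in 1 and 0. The low NRF1 and ETS shares of the closed set were thus not shared by its germline genes. Among developmental transcription factor genes, ETS and YY1 letters were each present in 0 of 53 closed and 3 of 151 open promoters (1.99%). Open promoters of these families were thus low too. The part of family make-up in the differences between closed and open promoters was not tested.

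Calls away from promoters were not scarce around closed genes. In the lenient lists, a call within 50 kb that lay more than 1 kb from every protein-coding TSS was present at 78.9% of closed genes in replicate 1 and 84.6% in replicate 2, against 80.2% and 86.9% of open genes. Among unique genes the shares were 92.8% and 93.4% for closed genes, against 80.1% and 87.0% for open genes. Unique genes with a call in some lists had shares of 89.0% and 94.6%. Repeated closed genes were lower, at 49.4% in replicate 1 and 65.8% in replicate 2. The distance to the nearest call varied by family. Its median was 4472.5 bp in replicate 1 and 5966 bp in replicate 2 for closed Hox genes, 7298 and 8141 bp for other closed developmental transcription factor genes, and 25559 and 19797 bp for closed germline genes. Adad1, an RNA-binding protein gene of the testis, was 140430 bp from any call in replicate 1 and 119133 bp in replicate 2. The libraries differed for closed protocadherin genes, with 88159.5 bp in replicate 1 and 18029 bp in replicate 2, and for closed histone genes, with 22731 and 1483 bp.

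**Figure D5:**
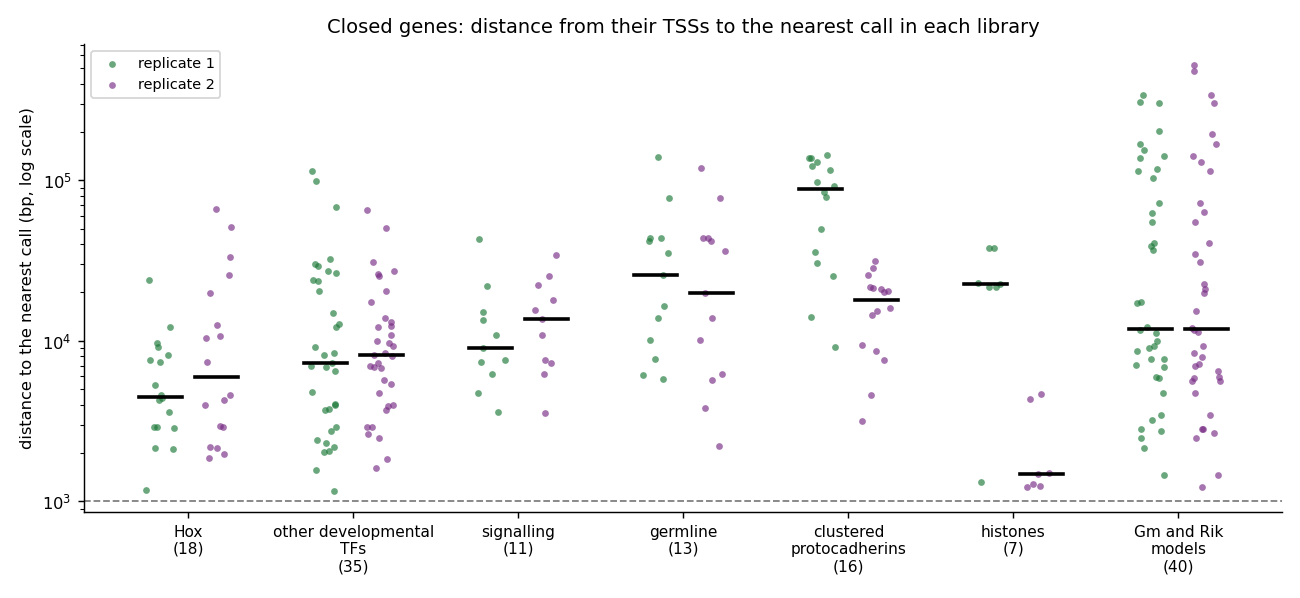
Distance from the TSSs of closed genes to the nearest call (y axis, bp, log scale) in replicate 1 and replicate 2, by family (x axis, number of genes in brackets); points are genes, bars are medians and the dashed line is the 1 kb limit. Hox genes lie closest in replicate 1, with a median of 4472.5 bp, and protocadherin and histone genes lie closer to calls in replicate 2.

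Dense groups of calls around some closed genes, many of them developmental, were present in replicate 1 and nearly absent in replicate 2. The same count was not made for open genes, where the highest numbers were 74 calls in replicate 1 and 64 in replicate 2. An excess at closed genes is therefore not shown. Among the 27 closed genes with 15 or more such lenient calls within 50 kb in either library, 21 had more in replicate 1, 15 of them at least 5 times as many, and 6 had more in replicate 2. Hoxd8 had 37 calls in replicate 1, with a median signal value of 0.294, and 3 in replicate 2, with 1.82. Zic1 had 30 calls in replicate 1 (median 0.161) and 2 in replicate 2 (1.13), Tlx1 30 (0.131) and 3 (1.07), and Hand2 20 (0.245) and 2 (0.689). The germline gene Sycp2 had 18 calls in replicate 1 and 0 in replicate 2, and St14 had 25 and 3. The reverse was seen at Gbx1, with 5 calls in replicate 1 and 23 in replicate 2, and at Dkkl1, with 4 and 25. Windows of neighbouring genes overlap, so the genes counted are not independent. Hoxd13, Hoxd11 and Hoxd10 share the same 15 and 3 calls, and Hoxd9, Hoxd8 and Hoxd3 of the same cluster are counted too. Hoxa6 and 5730596B20Rik had the same values, with 15 and 6 calls. The median of 0.420 at Hoxd13 in replicate 1 was close to the 0.430 of that library's lenient list. The promoters themselves had no call. At the 15 genes with at least 5 times as many calls in replicate 1, the calls there had median signal values of 0.112 to 0.420, under that 0.430. Some others of the 27 genes lay above it, such as Sfi1, at 1.32, and Efna2, at 0.929. The part of weak calls in the difference between the libraries was not tested.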

How the data were processed

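The authors deposited, for each library, 2 peak lists with a signal value per call, whose scaling is not stated, all in mm10 coordinates and without pooling, per the file headers. The deposited files also hold q-values (false discovery rates) for stretches of bases, given only under 0.05, and footprints that carry 0.01 on every line, read here as a threshold and not as a measurement. Aligner, caller, versions and read length are not given in the sources used. The list with fewer calls was taken as the stricter one; 2238 of its calls in replicate 1 and 641 in replicate 2 lay outside the lenient list.

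TSSs came from the GENCODE M21 basic annotation and sequence from RefSeq GRCm38. A gene's sequence features are those of its CpG-richest TSS, and its distance and signal values cover all its TSSs. Unique 36-base stretches were counted over 21 chromosomes and both strands. Scripts used Python 3.11.15, numpy 2.4.6, pandas 2.3.3, scipy 1.17.1 and matplotlib 3.10.9 and were tested on simulated data. No test was run, since the calls chose the genes and genes are not replicates.

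The closed genes, the gene lists and the consensus sequences were chosen with earlier results of these data known. Genes were named by rule: in each list the 4 closed genes with the longest CpG-rich stretch and the open genes where 5 or fewer, otherwise the 3 with the highest mean rank of signal, and over all closed genes the extremes of stretch, distance, listed bases and CpG ratio and the longest runs. Other closed genes of the lists and the check genes are named to account for the counts, and were chosen after their values were seen. Alternatives were other windows, lists, libraries, CpG limits, annotations and uniqueness limits. Some genes that the rule names are not reported here.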

Additional observations from a re-analysis of the deposited data

How the results depend on the processing

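No paired analysis was possible because the study holds 1 group and nothing was compared between groups. Leaving out 1 library gave 311 to 397 closed genes (246 with both), a closed share of 2.88% to 3.67% (2.28% with both), 21.8% to 28.1% for developmental transcription factor genes (16.7%), 23.3% to 31.7% for germline genes (21.7%) and 23.9% to 25.7% repeated (32.1%). Fewer lists can only close more genes. With the stricter lists alone, 540 genes were closed (4.99%), with 33.4% of developmental transcription factor genes, 36.7% of germline genes and 17.96% repeated. A CpG limit of 0.5 gave 396 closed genes (3.21%, median ratio 0.635) and a limit of 0.75 gave 84 (1.23%, median ratio 0.833, 10.7% of germline genes). A window of 0.5 kb gave 2.61%, a further GC limit of 55% gave 1.96% with 24.6% repeated, ratios within 250 bp gave 2.94% with a median of 0.652, and unique genes alone gave 1.64%. With windows of 200 bp the median stretch was 475 bp in closed genes and 650 bp in open genes. Calls 1 to 50 kb away in any list were present at 88.6% of closed and 90.7% of open genes. For closed genes the share was 79.3% to 84.6% with 1 library left out, 93.1% within 100 kb and 80.9% in the stricter lists, where it was 74.4% of open genes, so the order of the sets changed there. The cause was not tested. Only 1 closed gene had a base under a false discovery rate of 0.01, against 21 under 0.05. With listed bases counted at every TSS, 224 genes remained. Annotation, call-centre and 2 kb settings gave 222 to 249 closed genes. Depth is unknown, so a missing call is a call not made at these depths and not shown to be absent.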
